A study of Mus musculus with 16 samples.

Results

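The stem and folliculostellate cell genes of the mouse pituitary described here are *Sox2*, *Sox9*, *S100b*, *Aldh1a2*, *Hes1* and *Gfra2*. These 6 genes were chosen by name, with earlier results of these data known, out of 17362 genes with a value in the deposited table. All 6 were in the table. Bulk RNA-seq was done on the pituitaries of 16 female mice aged 27 weeks, with 1 library per mouse and 4 mice per group. Controls carried floxed *Esr1* alleles without Cre, and Esr1Nkx2-1Cre mutants carried the same alleles with a Cre driven by *Nkx2-1*, so that oestrogen receptor alpha, the product of *Esr1*, is lost wherever *Nkx2-1* was once active. Each genotype was fed chow or a high-fat diet (HFD), and HFD feeding lasted 17 weeks. *Nkx2-1* marks the developing hypothalamus and the posterior lobe, not hormone cells of the anterior lobe. Whether *Esr1* was lost in the stem cells of the anterior lobe was not tested. The comparisons ask whether the stem cell and folliculostellate transcripts of the gland differed with genotype, with diet, or with both together.

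Stem cells of the adult pituitary line the cleft between the anterior and intermediate lobes and lie scattered through the anterior lobe, and they keep the ability to form hormone cells. They overlap with the folliculostellate cells, star-shaped cells without hormone granules that form a network around the hormone cells. SOX2 is the transcription factor that defines these cells, and SOX9 is a related factor found with it in stem and folliculostellate cells. S100B, a calcium-binding protein, is the classic folliculostellate marker. ALDH1A2 makes retinoic acid from retinaldehyde, HES1 is a transcriptional repressor switched on by Notch signalling, and GFRA2 is the co-receptor for neurturin, a ligand of the glial cell line-derived neurotrophic factor (GDNF) family. Pituicytes, the glial cells of the posterior lobe, carry some of the same transcripts.

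On GRCm38 all 6 genes are protein coding and on the plus strand. *Sox2* (ENSMUSG00000074637) spans chr3:34650405-34652461, *Sox9* (ENSMUSG00000000567) chr11:112782224-112787760, *S100b* (ENSMUSG00000033208) chr10:76253853-76261159, *Aldh1a2* (ENSMUSG00000013584) chr9:71215789-71296243, *Hes1* (ENSMUSG00000022528) chr16:30064384-30067796 and *Gfra2* (ENSMUSG00000022103) chr14:70890120-70979838. *Sox2* lies inside *Sox2ot* on the same strand, *S100b* overlaps *Dip2a* on the opposite strand and *Aldh1a2* overlaps the pseudogene *Gm48124* on the opposite strand. The use of strand in the quantification is not given in the sources used here, so reads shared with these neighbours cannot be told apart.

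The promoters of *Aldh1a2* and *Sox2* are shown because these genes varied together from mouse to mouse. Both windows run from 250 bases before to 50 bases after the transcription start in RefSeq on GRCm38.p6, *Aldh1a2* at chr9:71215539-71215838 and *Sox2* at chr3:34649745-34650044, both on the plus strand. The *Aldh1a2* window holds the gene start given above. The *Sox2* window ends before the gene start given above (34650405), so it refers to the RefSeq start only. Capitals mark matches, on either strand, to an oestrogen receptor half-site (GGTCA) and a CCAAT box (CCAAT).
Aldh1a2: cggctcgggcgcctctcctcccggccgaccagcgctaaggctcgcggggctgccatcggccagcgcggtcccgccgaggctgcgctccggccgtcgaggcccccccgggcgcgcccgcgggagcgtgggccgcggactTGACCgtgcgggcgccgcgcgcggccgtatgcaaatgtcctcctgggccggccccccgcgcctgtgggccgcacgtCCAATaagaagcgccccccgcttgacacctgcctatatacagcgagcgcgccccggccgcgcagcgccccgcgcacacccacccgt
Sox2: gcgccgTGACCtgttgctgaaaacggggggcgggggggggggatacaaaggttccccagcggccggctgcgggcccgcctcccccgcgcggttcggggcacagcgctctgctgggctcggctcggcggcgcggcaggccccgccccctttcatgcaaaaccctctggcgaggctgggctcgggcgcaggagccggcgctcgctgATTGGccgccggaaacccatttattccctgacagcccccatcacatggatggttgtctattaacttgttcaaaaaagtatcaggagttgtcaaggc
Each window held 1 half-site on the minus strand, a match found in 40.15% of 27025 RefSeq promoters of the same length, and 1 CCAAT box, found in 37.92%. The RBPJ core through which Notch signals reach DNA (TGGGAA, in 25.52% of promoters) and a SOX core (ACAAT, in 31.62%) were searched as well and had no match in either window. Their GC content was 78.0% for *Aldh1a2*, at the 98.2 percentile of these promoters, and 66.3% for *Sox2*, at the 84.7 percentile. The motifs were chosen with the sequences in view, and a match is a description of letters, not a bound site. RefSeq promoter sequence was used for 3 of the 6 members, *S100b* being the other.

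Pituitary identity was plain in every library, with *Prl*, the prolactin gene, making up 28.8% to 40.6% of all values. *Esr1* itself was at 29.0 to 46.6 in controls on chow and 10.02 to 22.2 in mutants on chow, without overlap, and its log2 fold change was -1.09 (SE 0.25, adjusted p = 0.0409, limma). On HFD it was at 23.6 to 43.4 in controls and 21.5 to 33.4 in mutants, which overlapped (log2 fold change -0.34, SE 0.25, adjusted p = 0.696). Libraries P357, a mutant on chow, and P392, a control on HFD, stood apart. The mean log2 value of 7 posterior lobe genes was 0.11 in P357 and 0.27 in P392 against 1.90 to 2.49 in the other 14 mice, and *Rax* and *Avp* were at 0 in both, while *Col25a1* of the same list was 13.9 and 15.3 there, within the range of the others. Intermediate lobe transcripts were low in the same libraries. *Pomc*, the melanotroph hormone gene, was 1654 in P357 and 3443 in P392 against at least 11234 in the other 14 mice, and *Pax7*, the melanotroph factor, was 0.132 and 1.16 against at least 4.58. P357 holds the highest *Hes1* and *Aldh1a2* of the 16 mice, and the part of these lobes in the members' values was not tested beyond the posterior lobe score. P357 also had 13 mitochondrial genes summing to 119409, against 32247 to 49368 in the other 15 libraries. P392 lay with the mutants in many genes. Of 264 genes that differed between genotypes on chow, 80.3% were nearer to the mutant mean in P392, compared with 8.71% to 22.3% in the other 3 controls and 85.2% to 89.8% in the 4 mutants on HFD. However, *Esr1* was 39.6 in P392, above all 8 mutants. Results are therefore given with and without these libraries.

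Values are normalized expression values per gene that take transcript length into account, so levels can be set side by side between genes. Averaged over 16 mice, the levels ran in the order *Aldh1a2* (33.0), *Sox2* (19.9), *Hes1* (13.4), *Sox9* (4.14), *S100b* (0.627) and *Gfra2* (0.472). *Aldh1a2* exceeded *Sox2* in 16 of 16 mice, *Sox2* exceeded *Hes1* in 15, *Hes1* exceeded *Sox9* in 16 and *Sox9* exceeded *S100b* in 16. *S100b* and *Gfra2* at the bottom were not separated, with *S100b* the higher in 10 of 16 mice. Within all genes of the table, *Aldh1a2* stood at the 80.2 percentile and *Gfra2* at the 10.4 percentile. Estimated from the size of 1 read in each library, *Aldh1a2* rested on 801 to 1924 reads per mouse, *Sox2* on 469 to 777, *Sox9* on 195 to 382.2 and *S100b* on 1.99 to 29.8. Counting error alone was therefore up to 70.8% for *S100b* but at most 7.17% for the other 3, and it was not estimated for *Hes1* and *Gfra2*, which have several transcripts. *S100b* and *Gfra2* fell below the mean value of 1 needed for the test across all genes, which left 4 of 6 members in it.

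**Figure D1:**
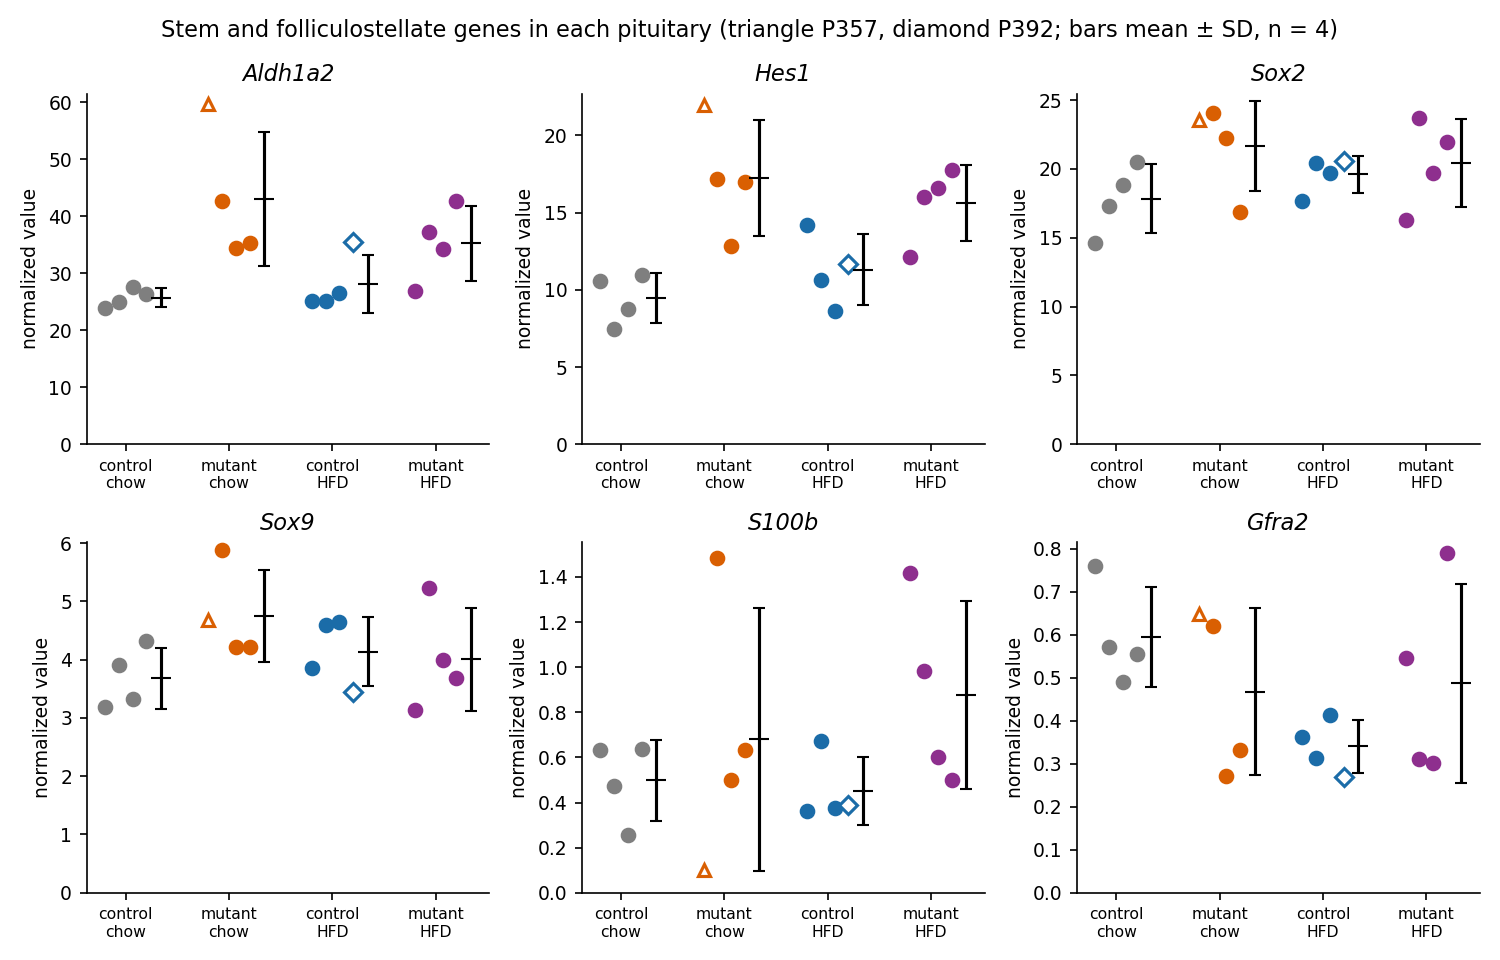
Normalized value (y axis, linear, from 0) of each of the 6 genes in each of 16 pituitaries by group (x axis), 1 point per mouse, with bars for mean ± SD (n = 4). The open triangle is P357 and the open diamond P392. On chow every mutant lies above every control for *Aldh1a2* and *Hes1*, and the groups overlap for the other genes.

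*Hes1*, the Notch effector, was higher in mutants on chow and averaged over both diets. On chow, *Hes1* was 10.6, 7.47, 8.78 and 10.97 in the 4 controls and 21.98, 17.1, 12.8 and 17.0 in the 4 mutants. Every mutant was above every control, with the highest value in P357. The group means were 9.44 ± 1.62 and 17.2 ± 3.74 (SD, n = 4), a log2 fold change of 0.83 (SE 0.18), or 1.77-fold, with an adjusted p of 0.0363 over 14345 genes (limma). On HFD, *Hes1* was 14.2, 10.7, 8.66 and 11.7 in controls and 12.1, 15.98, 16.6 and 17.8 in mutants. Of the 4 mutants 3 were above every control, and the mutant P339 lay below the control P385. The means of 11.3 ± 2.30 and 15.6 ± 2.45 (SD, n = 4) differed by 0.46 on the log2 scale (SE 0.18, adjusted p = 0.414, limma). Averaged over both diets the difference was 0.64 (SE 0.13), 1.56-fold, with an adjusted p of 0.0110 (limma) and an exact two-sided permutation p of 0.00122 within diets.

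The averaged *Hes1* difference stayed past the threshold whichever of the 16 mice was left out, with log2 fold changes of 0.58 to 0.71. The call on chow was lost in 9 of 16 cases, without P358, P359, P383, P357, P381, P382, P384, P341 or P387, where adjusted p reached up to 0.113 while log2 fold changes over all 16 cases ran from 0.70 to 0.95. It was also lost with only the 8 mice compared (0.83, adjusted p = 0.0589), with the animal number range as a covariate (0.80, adjusted p = 0.0555) and with the posterior lobe score as a covariate (0.78, SE 0.19, adjusted p = 0.0576, limma).

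*Aldh1a2*, the retinoic acid enzyme, was also higher in mutants when both diets were averaged. On chow, *Aldh1a2* was 23.9, 25.0, 27.7 and 26.4 in controls and 59.7, 42.8, 34.4 and 35.2 in mutants. The controls lay close together and every mutant exceeded them, P357 by the most. The group means were 25.7 ± 1.64 and 43.0 ± 11.8 (SD, n = 4), a log2 fold change of 0.70 (SE 0.17) that missed the threshold at an adjusted p of 0.0530 (limma). On HFD, *Aldh1a2* was 25.1, 25.2, 26.6 and 35.6 in controls and 26.9, 37.2, 34.3 and 42.7 in mutants. Apart from P392, at 35.6, every control lay below every mutant. The means of 28.1 ± 5.02 and 35.3 ± 6.59 (SD, n = 4) differed by 0.32 on the log2 scale (SE 0.17, adjusted p = 0.566, limma). Averaged over diets the difference was 0.51 (SE 0.12), 1.42-fold, with an adjusted p of 0.0248 (limma) and an exact two-sided permutation p of 0.00286 within diets.

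Leaving out P392 moved *Aldh1a2* past the threshold on chow (adjusted p = 0.0216, limma), through the shared spread, and gave 0.43 on HFD (SE 0.18, adjusted p = 0.211, limma). Without both P357 and P392 the log2 fold change was 0.53 on chow (SE 0.13, adjusted p = 0.0297), 0.43 on HFD (SE 0.13, adjusted p = 0.0627) and 0.48 averaged (SE 0.09, adjusted p = 0.00298, limma). The averaged call was lost when the controls P390 or P391 or the mutant P341 was left out, with adjusted p of 0.0543 to 0.0609 (limma).

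*Sox2*, the defining factor of these cells, did not pass the test in any comparison. On chow, *Sox2* was 14.6, 17.3, 18.8 and 20.5 in controls and 23.5, 24.1, 22.2 and 16.9 in mutants. Of the 4 mutants 3 were above every control and P384 lay among the controls. On HFD, *Sox2* was 17.7, 20.4, 19.7 and 20.6 in controls and 16.3, 23.7, 19.7 and 21.95 in mutants, which overlapped at both ends. The log2 fold change was 0.27 on chow (95% interval -0.03 to 0.57, adjusted p = 0.292), 0.05 on HFD (-0.25 to 0.35, adjusted p = 0.956) and 0.16 averaged (-0.05 to 0.37, adjusted p = 0.364, limma). The averaged interval allows differences of up to 0.37, so a small difference is not excluded at this number of mice.

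*Sox9*, the partner of *Sox2* in these cells, did not pass in any comparison either. On chow, *Sox9* was 3.19, 3.90, 3.32 and 4.32 in controls and 4.67, 5.88, 4.22 and 4.21 in mutants. Both highest values belonged to mutants, and the other 2 mutants lay just below the highest control. On HFD, *Sox9* was 3.86, 4.60, 4.65 and 3.44 in controls and 3.14, 5.22, 3.99 and 3.68 in mutants, with the highest and the lowest value both in mutants. The log2 fold change was 0.32 on chow (95% interval -0.04 to 0.69, adjusted p = 0.303), -0.05 on HFD (-0.42 to 0.31, adjusted p = 0.960) and 0.14 averaged (-0.12 to 0.39, adjusted p = 0.548, limma).

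*S100b*, the folliculostellate marker, was near the limit of detection. On chow, *S100b* was 0.631, 0.472, 0.257 and 0.638 in controls and 0.102, 1.49, 0.501 and 0.635 in mutants. The lowest value of all 16 mice, in P357, and the highest, in P381, were in the same group. On HFD, *S100b* was 0.364, 0.673, 0.376 and 0.390 in controls and 1.42, 0.982, 0.603 and 0.4996 in mutants. Of these mutants 2 were above every control, and the difference of 0.50 on the log2 scale had an exact two-sided permutation p of 0.0857 (n = 4 against 4, smallest possible p 0.0286). On HFD the estimated reads were 6.98 to 12.9 in controls and 10.1 to 27.9 in mutants. With 4 mice per group the difference was not resolved, and the part of counting error in it was not tested.

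*Gfra2*, the neurturin co-receptor, was also low, and its genotype groups overlapped on both diets. On chow, *Gfra2* was 0.761, 0.571, 0.490 and 0.555 in controls and 0.648, 0.620, 0.271 and 0.331 in mutants. On HFD, *Gfra2* was 0.363, 0.314, 0.415 and 0.270 in controls and 0.545, 0.312, 0.302 and 0.789 in mutants. Every control on HFD was below every control on chow, a difference of -0.38 on the log2 scale with an exact two-sided permutation p of 0.0286, the smallest this design allows. It was 1 of 36 exact tests run on the members, it was not adjusted for them, and in mutants the diet difference was 0.02 (exact permutation p = 0.914).

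**Figure D2:**
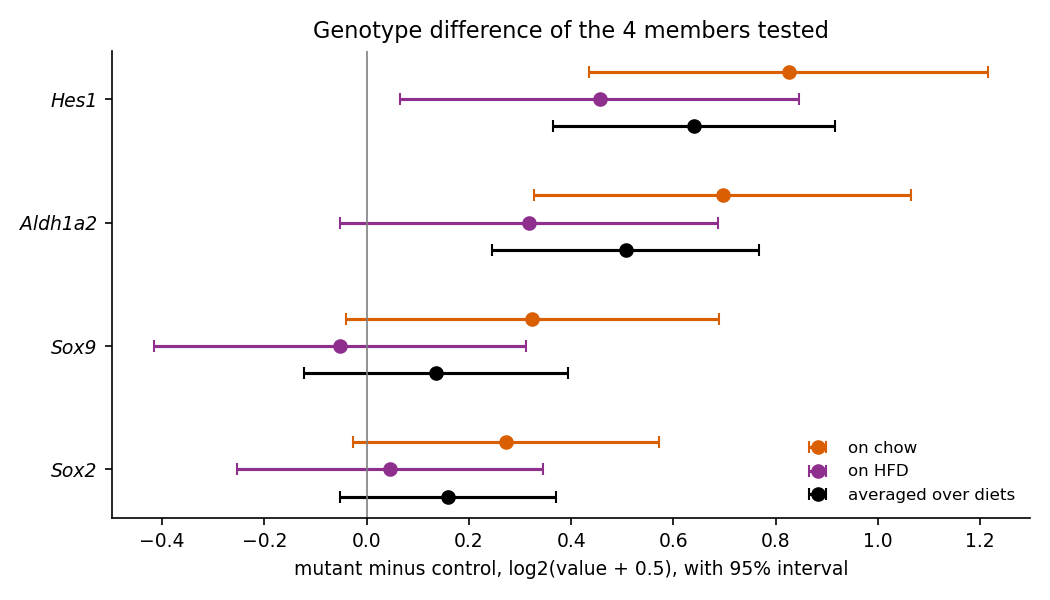
Mutant minus control difference of the 4 members tested, as log2(value + 0.5) on the x axis, on chow, on HFD and averaged over diets. Points are limma estimates over 16 mice and bars their 95% intervals. The averaged intervals of *Hes1* (0.36 to 0.92) and *Aldh1a2* (0.25 to 0.77) lie above 0, and those of *Sox9* and *Sox2* include 0.

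Counted together, 1 of the 4 members tested (*Hes1*) passed on chow, where 1.84% of all genes tested passed, and 2 of 4 (*Hes1* and *Aldh1a2*) passed averaged over diets, where 6.54% of all genes did. Both were higher in mutants. On HFD alone 0 of 4 members and 0% of all genes passed with limma, with *Hes1* the 1 member at an unadjusted p under 0.05. Every mutant exceeded every control for 2 of the 4 on chow, as in 6.09% of all genes, and for 0 of 4 on HFD, as in 2.96% of all genes. The median log2 fold change of the 4 was 0.51 on chow and 0.18 on HFD, where the medians of all genes tested were -0.01 and 0.02. Members and gene lists were chosen with earlier results of these data known, so counts beside the share of all genes are a description.

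None of the 4 members in the test across all genes passed for diet. HFD against chow passed for 0 of 4 members in controls and 0 of 4 in mutants, with 0% of all genes passing in either, and averaged over genotypes for 0 of 4, with 0.00697% of all genes passing. None of the 4 was at an unadjusted p under 0.05 in these comparisons (limma). In mutants *Aldh1a2* was lower on HFD by a log2 difference of -0.27 (95% interval -0.64 to 0.10), *Sox9* by -0.23 (-0.59 to 0.14), *Hes1* by -0.13 (-0.52 to 0.26) and *Sox2* by -0.09 (-0.38 to 0.21). In controls the 4 differences were 0.11 to 0.24. The genotype difference on HFD was below that on chow for all 4 members, with interaction terms of -0.38 for *Aldh1a2*, -0.37 for *Hes1*, -0.38 for *Sox9* and -0.23 for *Sox2*. The interaction passed for 0 of them (adjusted p = 0.924 for each, limma) and for 0% of all genes. A loss of the genotype difference on HFD is therefore not shown.

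The members fell into pairs that varied together over the 16 mice. *Aldh1a2* and *Hes1* rose and fell together with a Pearson's r of 0.822 (Spearman's rho 0.782, permutation p adjusted over 15 pairs 0.00105 for r and 0.00900 for rho). The r was 0.734 without the 2 mice with the most extreme *Aldh1a2*, and 0.569 once the mean of each group was subtracted. *Sox2* and *Sox9* had an r of 0.714 (rho 0.691, adjusted permutation p = 0.0101 and 0.0188), which was 0.567 without the 2 most extreme mice and 0.646 with group means subtracted. *Sox2* and *Aldh1a2* had an r of 0.704 (rho 0.741, adjusted permutation p = 0.0101 and 0.0107), 0.668 without the 2 most extreme mice and 0.628 with group means subtracted. None of the other 12 pairs passed. The permutations ran over all 16 mice without regard to group, so their p includes differences between the groups. No p was computed for r with group means subtracted. *Hes1* and *Sox2* had an r of 0.479, and the pairs with *S100b* or *Gfra2* ran from -0.161 to 0.218. Both genes of a pair come from the same library, so anything that differs between libraries is shared by them.

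**Figure D3:**
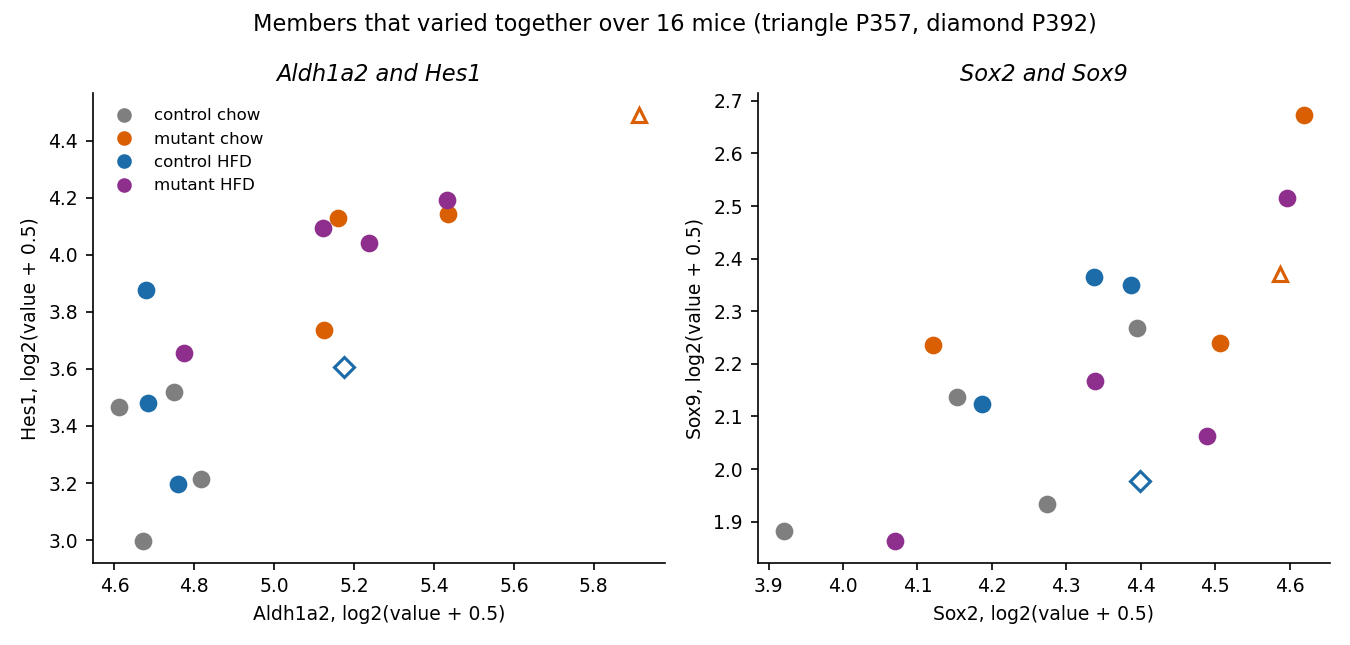
*Hes1* against *Aldh1a2* (left) and *Sox9* against *Sox2* (right), each axis log2(value + 0.5), 1 point per mouse and coloured by group, with P357 as an open triangle and P392 as an open diamond. On chow, mutants lie to the upper right of controls for *Aldh1a2* and *Hes1*. On HFD the genotypes overlap, with the mutant P339 near the controls and the control P392 among the mutants in *Aldh1a2*. The groups are mixed for *Sox2* and *Sox9*.

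Across all genes tested, those most like each member over the 16 mice included *Gdf1* (r = 0.921), *Gsta4* and *Crlf2* for *Sox2*, *Rnf165* (0.846) and *Rasa2* for *Sox9*, and *Cntfr* (0.927), *Robo3* and *Ifitm2* for *Aldh1a2*. For *Hes1* they were *Unc13b* (0.881), *Macc1* and *Phactr1*, for *S100b* *Ppargc1a* (0.873), *Slc36a4* and *Rps6ka5*, and for *Gfra2* *Zfp618* (0.819), *Dedd2* and *Gm13204*. Without P357 and P392 the list for *Sox2* kept *Gdf1* (0.916) and *Gsta4*, with *Sall1* as the next gene. That for *Aldh1a2* then included *Ubtd1* (0.924) and *Kif17*, and that for *Hes1* became *Zfp697* (0.937), *Alpl* and *Jund*. For *Sox9* the leading gene was then *Pced1b* (0.854), for *S100b* again *Ppargc1a* (0.85) and for *Gfra2* *Nfya* (0.826). These are the extremes of 14345 correlations over few mice and are given as a description.

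Posterior lobe tissue was set beside the members, since pituicytes share some of their transcripts. Among the 14 mice other than P357 and P392, the posterior lobe score varied with *Sox2* (r = 0.745, rho 0.736, permutation p adjusted over 6 members 0.0139 for r and 0.0221 for rho), and r was 0.691 without the 2 most extreme mice. Without *Col25a1*, which is itself higher in mutants (0.89 averaged, SE 0.15, adjusted p = 0.00471, limma), the r was 0.598 and no longer passed (adjusted permutation p = 0.134). *Aldh1a2* and *Hes1* had r of 0.486 and 0.356 with the full score, and 0.137 and -0.03 without *Col25a1*, none of which passed. In P357 and P392, where *Rax* and *Avp* were at 0, *Sox2* was 23.5 and 20.6, within or above its values in the other mice of their groups. In bulk tissue, fewer cells of a type and less RNA per cell cannot be told apart.

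Other genes known from pituitary stem and folliculostellate cells moved in part with the members. Of 35 further such genes 32 were tested, and averaged over diets 7 were higher and 1 lower in mutants, 8 of 32 against 6.54% of all genes. The median log2 fold change of the 32 was 0.20, and 0.00 over all genes tested. *Cd9*, a membrane tetraspanin of a stem cell subset, was 50.5 to 58.4 in controls and 86.6 to 118 in mutants on chow, and 52.8 to 106 in controls and 87.0 to 107 in mutants on HFD. The 106 was P392, and the other controls on HFD were at most 63.4. *Cd9* differed by 0.72 averaged (SE 0.12, adjusted p = 0.00471) and by 0.88 on chow (SE 0.17, adjusted p = 0.0256, limma).

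*Krt8*, a keratin of the epithelial stem cells, was 28.5 to 32.2 in controls and 37.6 to 49.2 in mutants on chow, and 25.1 to 32.4 and 32.2 to 38.9 on HFD. Here P392, at 27.8, lay with the other controls. *Krt8* differed by 0.43 averaged (SE 0.07, adjusted p = 0.00530) and by 0.49 on chow (SE 0.11, adjusted p = 0.0318, limma). *Gja1*, the gap junction protein that couples folliculostellate cells, differed by 0.65 averaged (SE 0.14, adjusted p = 0.0127). *Nes*, an intermediate filament gene, differed by 0.81 (adjusted p = 0.0156) and *Prrx2*, a homeobox gene also active in mesenchyme, by 1.76 (SE 0.40, adjusted p = 0.0178, limma). *Vim* and *Yap1* were the others that rose, and *Six6*, a homeobox gene of the pituitary primordium, fell by 0.32 on the log2 scale (SE 0.08, adjusted p = 0.0286, limma).

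**Figure D4:**
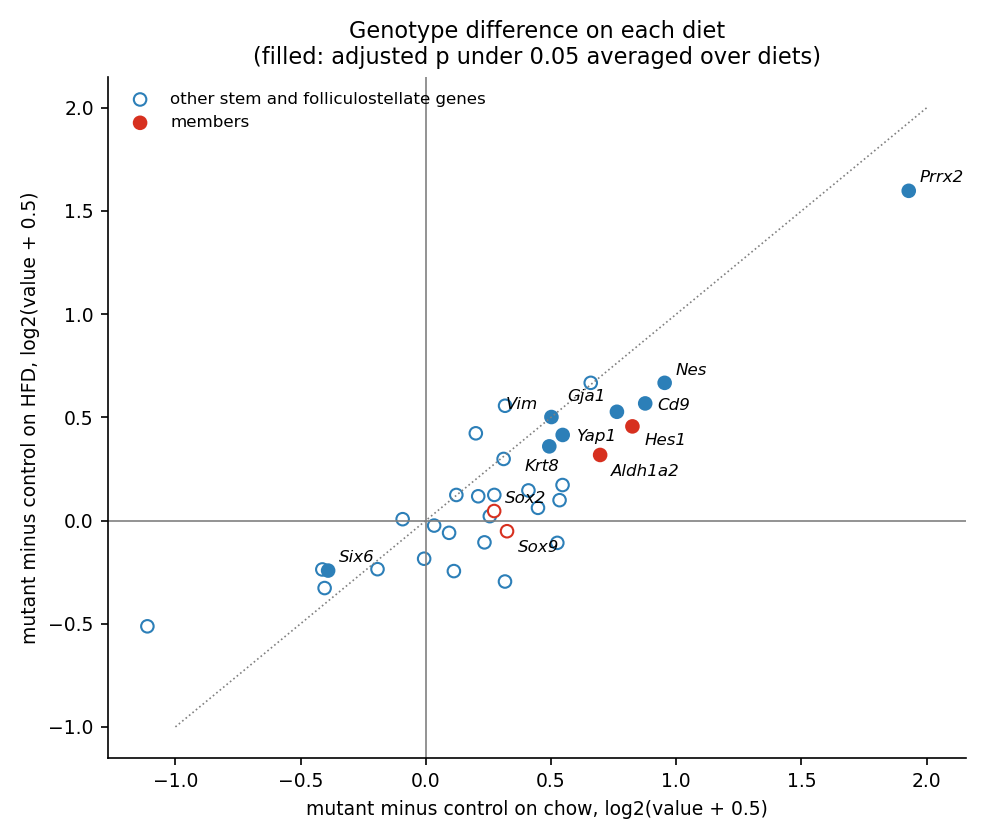
Mutant minus control difference on chow (x axis) and on HFD (y axis), both log2(value + 0.5), for the 4 members tested (red) and 32 further stem and folliculostellate genes (blue), with no mouse shared between the axes. Filled points passed averaged over diets, and the dotted line marks equal differences. The filled points lie up and right of 0 except *Six6*.

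On chow alone 2 of the 32 passed (*Cd9* and *Krt8*), with a median of 0.29, and on HFD 0 passed, with 8 higher and 2 lower at an unadjusted p under 0.05 and a median of 0.11. Without P392 the chow comparison called 5 of the 32, all higher, where 5.42% of all genes passed, and the HFD comparison called 4, all higher in mutants, namely *Cd9*, *Prrx2*, *Nes* and *Gja1*, where 4.55% of all genes passed. Without P357 the chow comparison called 0 of the 32 and 0.934% of all genes. The averaged comparison called 10 higher and 3 lower without P392, where 13.5% of all genes passed, and 11 higher and 3 lower without both libraries, where 18.6% did.

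Notch signalling, which switches on *Hes1*, had 33 of 35 listed genes tested. Averaged over diets 5 were higher in mutants and 0 lower, against 6.54% of all genes, and the median of the 33 was 0.07. The median was -0.02 on chow, where 15 of the 33 had a positive difference, and 0.14 on HFD, where 24 had. *Jag2*, a Notch ligand, was 31.4, 20.3, 14.3 and 15.6 in controls and 71.0, 51.8, 59.6 and 62.8 in mutants on chow. On HFD *Jag2* was 25.3, 33.6, 19.5 and 51.3 in controls and 55.6, 61.6, 64.5 and 54.2 in mutants. Mutants were above controls on both diets, with P392 as the control nearest to them. The difference was 1.63 on chow (SE 0.26, adjusted p = 0.00962) and 1.28 averaged (SE 0.18, adjusted p = 0.00174, limma).

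The other ligands that passed averaged over diets were *Dll4* (0.82, SE 0.17, adjusted p = 0.0139) and *Jag1* (0.59, SE 0.14, adjusted p = 0.0224). The receptor *Notch3* differed by 0.64 (SE 0.14, adjusted p = 0.0140) and *Nrarp*, a target and feedback inhibitor of Notch, by 0.97 (SE 0.19, adjusted p = 0.00841, limma). On chow *Jag2* alone passed, and on HFD 0 passed, with 5 higher at an unadjusted p under 0.05. Without P392, 6 passed on chow, all higher, and *Notch3*, *Nrarp*, *Jag2* and *Dll4* passed on HFD, at log2 differences of 0.86 to 1.38. Of all genes, 5.42% passed on chow and 4.55% on HFD without P392. Of the relatives of *Hes1* in the list, *Hey1* differed by 0.34 (adjusted p = 0.0540) and *Hey2* by 0.40 (adjusted p = 0.0607, limma) and neither passed. The other relatives went both ways. *Hes6* had means of 32.1 in controls and 27.4 in mutants on chow, and 31.5 and 28.2 on HFD. *Heyl* had 6.34 and 9.67 on chow, and 6.90 and 9.15 on HFD. *Hes7* was low, at 0.964 and 0.694 on chow, and 0.950 and 0.801 on HFD. *Hes5* was at 0.874 and 1.43 on chow, and 1.28 and 0.337 on HFD.

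*Dll4* and *Notch3* are also known from vessels, and vessel and leukocyte markers moved the same way. The 8 endothelial markers summed to 126 to 146 in controls and 184 to 248 in mutants on chow, and to 115 to 236 in controls and 177 to 202 in mutants on HFD, with 236 in P392 and none of the 8 at 0 in any library. Averaged over diets, where 6.54% of all genes passed, 4 of 8 passed, all higher (*Cdh5*, *Pecam1*, *Plvap* and *Tek*). The 8 leukocyte markers summed to 49.7 to 66.8 in controls and 86.2 to 210 in mutants on chow, and to 46.1 to 145 and 81.7 to 187 on HFD, and 2 of 8 passed (*C1qa* and *Cx3cr1*), both higher. *Rgs5*, a pericyte gene, was the 1 of 8 tested fibroblast and pericyte genes that passed, at 1.20 (SE 0.27, adjusted p = 0.0162, limma). Without P392 the averaged counts were 8 of 8 endothelial, 5 of 8 leukocyte and 4 of 8 fibroblast and pericyte genes, all higher in mutants, where 13.5% of all genes passed. The part of these cells in the results for *Hes1*, *Aldh1a2*, the Notch genes and the further stem and folliculostellate genes was not tested.

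With all 16 mice in the fit, no other gene of the retinoic acid pathway passed beside *Aldh1a2*, which makes the ligand. Of 20 listed genes 16 were tested, and 0 passed in any genotype comparison, with 4 higher and 1 lower at an unadjusted p under 0.05 averaged over diets and a median of -0.03. The most abundant of them were *Rbp4*, the plasma retinol carrier, which differed by 0.73 averaged (adjusted p = 0.196), and *Rarg*, a retinoic acid receptor, which differed by -0.29 (adjusted p = 0.264, limma). Without P392, *Rbp4* passed on HFD at 1.33 (SE 0.27, adjusted p = 0.0103, limma). Averaged over diets 2 of the 16 then passed, both higher, where 13.5% of all genes passed. *Aldh1a1*, the sister enzyme of *Aldh1a2*, was at 7.80 to 10.1 in controls and 10.3 to 14.3 in mutants on chow, a difference of 0.41 (adjusted p = 0.1501, limma), and it passed on chow without P357 and P392 (0.50, SE 0.13, adjusted p = 0.0382).

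In the GDNF family 2 of 8 tested genes passed on chow, where 1.84% of all genes passed, and averaged over diets, where 6.54% did. Both are signalling partners that can work with GFRA co-receptors. The median log2 fold change of the 8 was -0.21 on chow, with 3 of 8 higher in mutants, and 0.03 averaged, with 4 of 8 higher. *Ret*, the receptor tyrosine kinase of the family, was 7.35, 0.461, 0.974 and 0.761 in controls and 7.78, 20.2, 21.2 and 20.7 in mutants on chow. On HFD *Ret* was 5.39, 1.64, 1.13 and 18.6 in controls and 20.003, 15.9, 14.3 and 20.5 in mutants. The groups were apart on chow, where P357 was the lowest mutant and P356 the highest control, while on HFD P392 lay among the mutants. *Ret* differed by 3.11 on chow (SE 0.70, adjusted p = 0.0369) and by 2.56 averaged (SE 0.49, adjusted p = 0.00847, limma). *Ncam1*, an adhesion molecule that binds GDNF, differed by 0.65 on chow (SE 0.16, adjusted p = 0.0456) and by 0.61 averaged (SE 0.11, adjusted p = 0.00580). *Gfra1*, the co-receptor for GDNF, differed by -0.52 averaged (adjusted p = 0.437, limma), and the ligand *Nrtn* by -0.19 (adjusted p = 0.618).

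**Figure D5:**
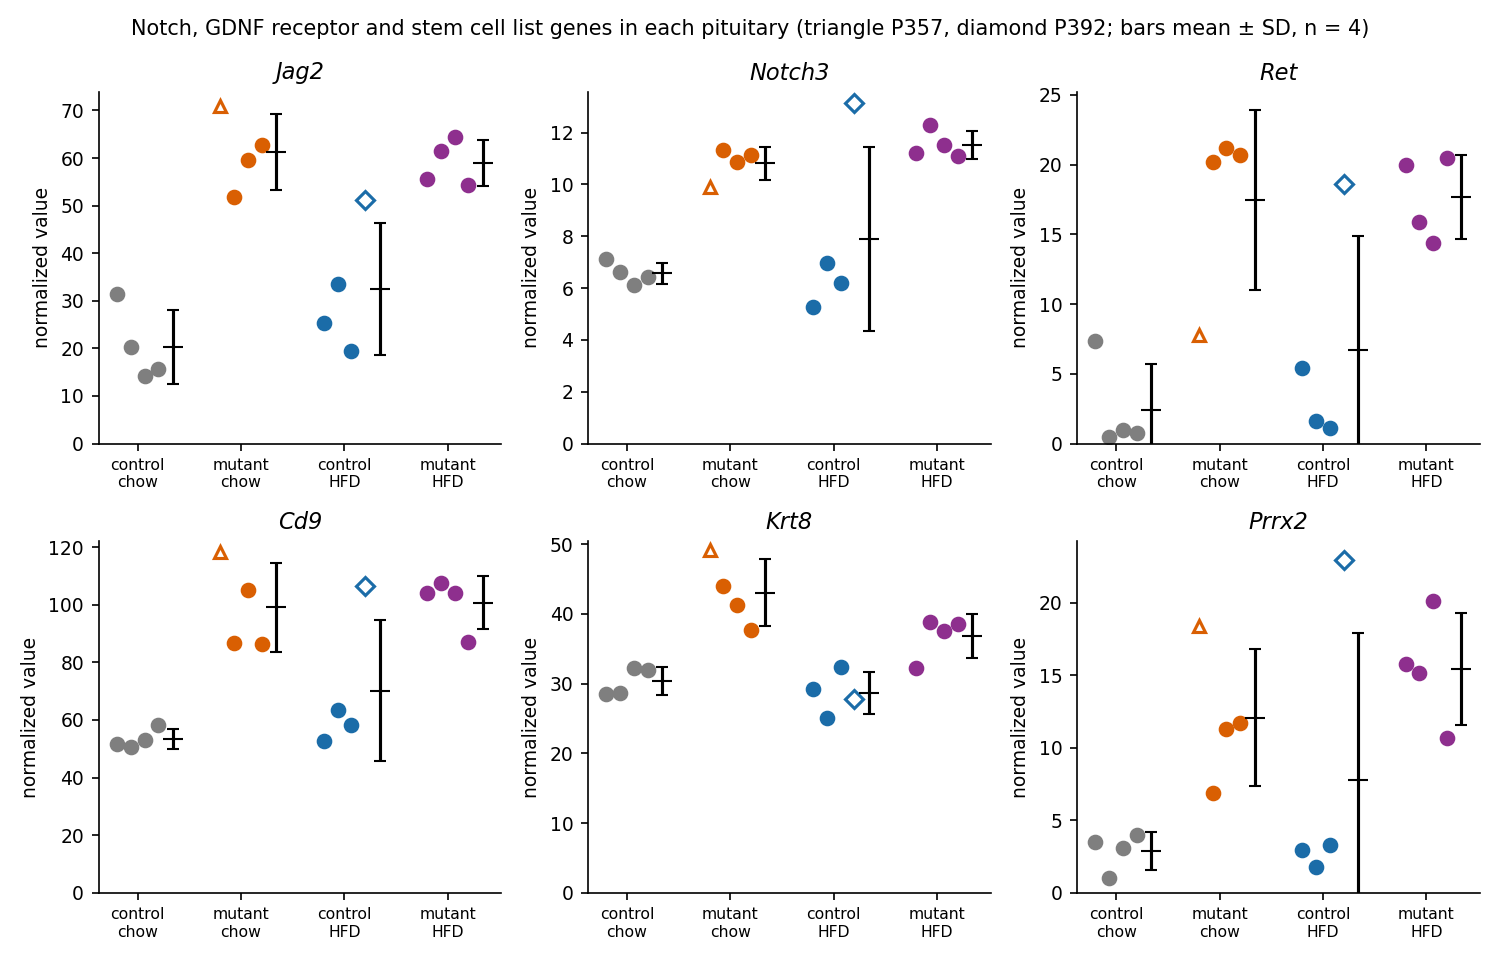
Normalized values (y axis, linear, from 0) of *Jag2*, *Notch3*, *Ret*, *Cd9*, *Krt8* and *Prrx2* in each of 16 pituitaries by group (x axis), with bars for mean ± SD (n = 4), whose lower end is cut at 0 for *Ret* and *Prrx2*. The open triangle is P357 and the open diamond P392. On HFD, P392 lies among or above the mutants for *Notch3*, *Ret*, *Cd9* and *Prrx2*, just below them for *Jag2* and with the other controls for *Krt8*.

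Relatives of the other members went different ways. In the SOX family, 11 genes other than *Sox2* and *Sox9* were tested. *Sox18*, a factor of endothelial cells, was higher in mutants (0.83 averaged, SE 0.17, adjusted p = 0.0102), and *Sox4*, a factor of immature cells, fell by 0.48 on the log2 scale (SE 0.11, adjusted p = 0.0190, limma). Both also passed on chow, where 1.84% of all genes passed. In the list of S100 genes, 11 were tested, *S100a16* was higher (0.43, SE 0.10, adjusted p = 0.0231) and *S100pbp*, a binding partner and not an S100 protein, fell by 0.30 on the log2 scale (SE 0.07, adjusted p = 0.0174, limma). Without P392 the averaged S100 count was 4 higher and 1 lower, where 13.5% of all genes passed. The medians of both lists averaged over diets were 0.20 and 0.43, and the call rate of all genes was 6.54%.

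Transcripts that oestrogen is known to induce were measured beside the members, since the stage of the cycle is not given in the sources used here. *Greb1* was 99.9 to 118 in the 8 mutants, and it was 106, 100.4 and 111 in the controls P356, P385 and P392 against 39.8 to 58.1 in the other 5 controls. *Pgr* was 10.7 to 22.2 in the 8 mutants, 17.4, 12.9 and 20.1 in P356, P385 and P392, and 4.56 to 7.74 in the other 5 controls. Averaged over diets, *Greb1* differed between genotypes by 0.71 (SE 0.20, adjusted p = 0.0466) and *Pgr* by 0.92 (SE 0.27, adjusted p = 0.0523, limma). In P356 and P385, *Aldh1a2* was 23.9 and 25.1, the lowest values of their groups, while *Hes1* was 10.6 and 14.2. In P392 they were 35.6 and 11.7. *Aldh1a2* at the level of mutants was seen in 1 of these 3 controls, and *Hes1* overlapping mutants on HFD in P385. The part of the cycle in the genotype differences was not tested.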

How the data were processed

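Pituitary RNA of 16 female mice was sequenced as 1 library per mouse. The labels gave genotype and diet, and the methods of the study gave age and HFD duration. For quantification, the authors used Kallisto in gene mode with an mm10 transcriptome, and Sleuth for their own tests. Versions, annotation release and filter are not given in the sources used here. What the authors deposited is, for each gene, a normalized signal, summing to 908897 to 1335782 per library. They are not counts, and the scaling between libraries is not stated. Values of 1457 genes with 1 transcript of at least 1500 bp fell near multiples of a step that falls with transcript length (81.3% to 93.8% within 0.15 of a whole read for values of up to 5 reads, where chance gives 30%). This step was taken as 1 read, and estimates from it cover counting error only.

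Genes with a mean of at least 1 (14345) were tested by limma (version 3.58.1, R 4.3.3) on log2(value + 0.5), which understates changes of low genes. The fit had a mean for each of the 4 groups, all 16 mice, an eBayes trend, Benjamini-Hochberg adjustment over these genes and a threshold of 0.05. It was tested on simulated data. Single members were compared with two-sided exact permutation tests, and correlations with 100000 permutations of the mice without regard to group (scipy 1.17.1). Positions are those of GENCODE M21.

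The members and gene lists were chosen with earlier results of these data known. From each list up to 5 genes past the threshold by smallest p were named, or the 2 most abundant where none passed. For each member the genes most correlated with it, 3 over 16 mice and 3 over 14, were sought, and 2 of these are not reported here. *Aldh1a1*, *Gfra1*, *Nrtn*, *Hey1*, *Hey2*, *Heyl*, *Hes5*, *Hes6*, *Hes7*, *Vim*, *Yap1*, *Six6*, *Greb1*, *Pgr* and genes given for single libraries were named after their values were seen. Alternatives were filters, pseudocounts, scalings, eBayes without trend, only the 8 mice compared, covariates, a stricter threshold and mice left out. The posterior lobe score without *Col25a1*, and list counts without P357 or P392, were added after seeing the data. Of the intermediate lobe, anterior lobe hormone cell and glial lists, 0 genes passed a genotype comparison with all 16 mice in the fit. With P357, P392 or both left out, *Lhb*, a gonadotroph hormone gene (lower in mutants), or *Mbp*, a myelin gene (higher), passed in some of these comparisons.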

Additional observations from a re-analysis of the deposited data

Results flagged for a closer look

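In 24 groups of 4 mice (6 genes in 4 groups), 2 had a mouse far from the other 3, where chance marks about 1.2. *Aldh1a2* in P392, a control on HFD, was 35.6, and the other 3 controls on HFD were at 25.1 to 26.6. P392 was also the library that lay with the mutants in 80.3% of the genes that differed on chow, and *Rax* and *Avp* of the posterior lobe were at 0 in it. *S100b* in P390, another control on HFD, was 0.673, and the other 3 were at 0.364 to 0.390, at few estimated reads.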

How the results depend on the processing

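On chow, 1 member passed. The number was 0 with only the 8 mice compared, with the animal number range as a covariate, with the posterior lobe score as a covariate, with or without *Col25a1*, and at an adjusted p under 0.01. It was 2 with both P357 and P392 left out, and 0 to 2 when single mice were left out. Averaged over diets, 2 members passed, 0 at an adjusted p under 0.01 and 1 to 2 when single mice were left out. Of all genes, 264 passed on chow, 151 with a mean of at least 5, 168 and 99 with the posterior lobe score with and without *Col25a1*, 961 without P357 and P392, 20 at an adjusted p under 0.01 and 33 to 826 with single mice left out. Averaged, 938 passed, 610 with a mean of at least 5, 1421 with the lobe score, 2668 without P357 and P392 and 441 to 1931 with single mice left out. *Hes1* and *Aldh1a2* stayed higher in mutants on chow in all 28 alternatives (log2 fold change 0.70 to 0.95 and 0.53 to 0.79) and averaged in all 27. No result changed direction while past the threshold. The cause of these shifts was not tested. Depth limits *S100b*, and low values limit *Gfra2*. No paired analysis was possible because the labels share no replicate numbers between groups.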
